A study of Rattus norvegicus with 6 samples.

Results

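The genes described here encode the proteins of the cytosolic ribosome in rat brain, sorted by subunit and by copy. They are the 97 of 32623 rows of the expression table whose symbol is that of a large subunit protein (Rpl or Rplp) or a small subunit protein (Rps or Rpsa), with the S6 kinases left out. The 97 rows carry 87 symbols, 59 rows for the large and 38 for the small subunit. Of these, 73 are called main copies, 1 for each of 73 protein families (45 large, 28 small). The name goes by the symbol alone. Of the main copies, 7 have no intron and lie on another chromosome than the RefSeq gene of that name, as described below. A further 8 are second rows under a main copy's symbol, and 16 are paralogs or like-named copies such as Rps27l. Of 77 families looked for, 4 have no row under their symbol: Rpl22, Rps14, Rps19 and Rps26.

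The study set 3 brain libraries labelled with the genotype pcDNA3.1/LINC00894 (called LINC00894 below) against 3 labelled with the empty expression plasmid pcDNA3.1 (vector). LINC00894 is a human long intergenic non-coding RNA. Per the labels, poly(A) RNA was sequenced, which bears on ribosomal protein mRNAs but leaves ribosomal RNA out of view. The labels did not state how the plasmid was delivered, the brain region, the sex or age of the rats, ischemia or separate animals. A p-value here therefore reflects how far libraries of a group lie apart, and that spread may be technical.

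A ribosome holds a single copy of most of these proteins, arranged around ribosomal RNA. The large subunit forms peptide bonds and the small subunit reads the mRNA. Their mRNAs belong to the TOP class, which begins with a C followed by a run of pyrimidines and whose translation is set by mTORC1 through LARP1. In neurons, ribosomal protein mRNAs are also found in axons and dendrites.

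The 30 bases around the annotated start of several of these genes show the feature that names the TOP class. Each line below runs 5′ to 3′ from 10 bases before the start to 20 bases from it, and capitals mark the unbroken pyrimidine run that begins at the start. Sequences and positions are from RefSeq on the GRCr8 assembly, which held a promoter for 62 of the 77 family names. The first 6 are main copies with a TOP start.
Rpl19, chr10:83519054-83519083, plus strand: ccagcaagctCTTTCCTTTCgctgctgcgt
Rpl31, chr9:49143101-49143130, plus strand: atccctcgcgCCTTTCCTTTCCaacttggg
Rplp1, chr8:71290853-71290882, minus strand: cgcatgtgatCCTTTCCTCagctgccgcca
Rpl10, chrX:157205840-157205869, plus strand: gtgggagcgtCTCTTTTCCTCTggcgcggt
Rps18, chr20:4933735-4933764, plus strand: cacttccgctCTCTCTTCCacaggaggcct
Rps27, chr2:177964587-177964616, minus strand: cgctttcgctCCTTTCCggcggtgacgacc
The next 4 are paralogs of main copies, shown because none has a TOP start at its annotated position.
Rps27l, chr8:76443648-76443677, plus strand: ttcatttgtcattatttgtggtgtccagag
Rpl7l1, chr9:21695708-21695737, plus strand: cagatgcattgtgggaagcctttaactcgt
Rpl22l1, chr2:113683186-113683215, plus strand: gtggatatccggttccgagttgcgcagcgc
Rps4y2, chr4:183000903-183000932, plus strand: cagctctcctCactcgcttgtgctctggga
Rps27l, for example, has no pyrimidine at its annotated start, while Rps27 begins with a run of 7. Most main copy names also lack a TOP start at the annotated position, as 24 of the 62 with a promoter had one. Rps4x, the main copy of Rps4y2, is among those without.

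A C stood at the annotated start in 54.8% of the 62 family promoters and in 24.1% of all 33469 promoters. A C followed by at least 4 pyrimidines stood there in 24 family promoters (38.7%), against 2.63% of all promoters. The share was 44.7% of 38 large subunit promoters and 29.2% of 24 small subunit promoters. Within the 250 bases before and 50 bases after the start, on either strand, the letters CTTCCG occurred in 56.5% of family promoters and 16.6% of all promoters. The letters CTTTCC occurred in 48.4% and 26.4%, and TATAAA in 9.68% and 14.2%. A match describes these letters only, and an annotated start that is a few bases off would hide a TOP start.

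Library totals ran from 12843875 to 13328801 counts in LINC00894 and from 13384733 to 16268464 counts in vector. Neuron markers were present in all 6 libraries, at 4580 to 6510 summed CPM (counts scaled to the library total) in LINC00894 and 5730 to 5950 summed CPM in vector. The libraries differ in Y-linked counts: Kdm5d had 0, 0 and 491 counts in LINC00894 replicates 1, 2 and 3, and 501, 638 and 930 counts in vector replicates. They also differ in how level depends on gene length, with LINC00894 replicate 3 at a slope of -0.10 log2 units per doubling of exonic length and vector replicate 3 at 0.062, where the other 4 libraries lie between -0.000 and 0.017. Where these bear on a result below, the value is given beside it.

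Ribosomal protein mRNAs were abundant, and their levels differed widely between genes. Levels are given in FPKM, which scales counts to exonic length and to the library total. Among main copies averaging 10 FPKM or more over the 6 libraries, the 37 large subunit rows had a median of 198 FPKM (13.8 to 484) and the 25 small subunit rows a median of 204 FPKM (26.8 to 449). Of the 15121 genes that passed the filter on low counts used for testing, 6 members were among the 100 highest by mean FPKM. Over these 62 rows, the level in FPKM and the exonic length had a Spearman rho of -0.32, a description across genes that are not independent replicates.

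The 5 highest large subunit rows were Rpl41, Rpl19, Rpl35, Rpl6 and Rplp1. Rpl41, whose product is among the shortest proteins known, had 557, 401 and 736 FPKM in LINC00894 replicates 1, 2 and 3, against 437, 444 and 327 FPKM in vector replicates. Rplp1, an acidic protein of the stalk that recruits translation GTPases, stood at 382, 273 and 490 FPKM in LINC00894 and at 292, 288 and 227 FPKM in vector. In both genes LINC00894 replicates 1 and 3 were the highest libraries, while LINC00894 replicate 2 lay inside the vector range. Rplp0, the stalk's base, averaged 314 ± 78.7 FPKM in LINC00894 and 227 ± 63.7 FPKM in vector (SD, n = 3 each), with overlapping groups. Rpl19, whose TOP start is shown above, averaged 429 ± 103 FPKM in LINC00894 and 329 ± 46.1 FPKM in vector, and Rpl35 and Rpl6 also overlapped between the groups.

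Rps23, Rps27a, Rps2 and Rps25 were among the highest small subunit rows. Rps23, a protein of the decoding centre, stood at 530, 384 and 644 FPKM in LINC00894 and at 385, 390 and 359 FPKM in vector. Rps27a, which is made as a fusion with ubiquitin, stood at 459, 366 and 593 FPKM in LINC00894 and at 365, 354 and 313 FPKM in vector. For Rps27a every LINC00894 library lay above every vector library, but LINC00894 replicate 2 and vector replicate 1 were nearly level. Rpsa, also known as the laminin receptor precursor, stood at 450, 276 and 412 FPKM in LINC00894 and at 265, 319 and 219 FPKM in vector, so that LINC00894 replicate 2 again lay inside the vector range.

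The main comparison asked whether ribosomal protein genes differed between LINC00894 and vector brains. Most had higher values in LINC00894 by about the same amount, and none passed the test. Of the 97 rows, 82 passed the filter on low counts (66 main copies, 7 second rows and 9 paralogs), and 81 of these 82 had a positive log2 fold change of LINC00894 over vector, as had 51.8% of all 15121 genes tested. The median log2 fold change was 0.36, or 1.29-fold (interquartile range 0.29 to 0.41, range -0.02 to 1.39), and that of all genes tested was 0.012. By edgeR's quasi-likelihood test with Benjamini-Hochberg adjustment, 0 members had an adjusted p under 0.05, as had 0% of all genes tested. The smallest adjusted p among members was 0.981. DESeq2 also called 0 members, and 0.0727% of all genes. The other fits tried called 0 members and 0% of all genes, except that 0.0351% of all genes were called with no filter on low counts, 0.0584% without LINC00894 replicate 3 and 0.0129% without vector replicate 1.

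At an unadjusted p under 0.05, 7 members (8.54%) were higher and 0 were lower in LINC00894, where 1.82% of all genes tested were higher and 2.22% lower. Every LINC00894 library lay above every vector library in CPM for 10 members (12.2%), against 7.86% of all genes tested, and below for 0 members, against 2.34%. With TMM scaling of the libraries, the count above was 7, against 4.98% of all genes, and the count below was 0, against 3.88%. Members move together from library to library, so these counts do not stand for independent genes.

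Of the 6 libraries, 3 stood farthest from the members' means: LINC00894 replicates 1 and 3 above them and vector replicate 3 below. After TMM scaling, the median member deviated from its own mean over the 6 libraries by 0.32, -0.17 and 0.37 log2 units in LINC00894 replicates 1, 2 and 3. In vector replicates 1, 2 and 3 the median deviations were -0.10, -0.04 and -0.37. LINC00894 replicate 2 thus stood lower than vector replicates 1 and 2, and vector replicate 3 was the lowest library of all.

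**Figure D1:**
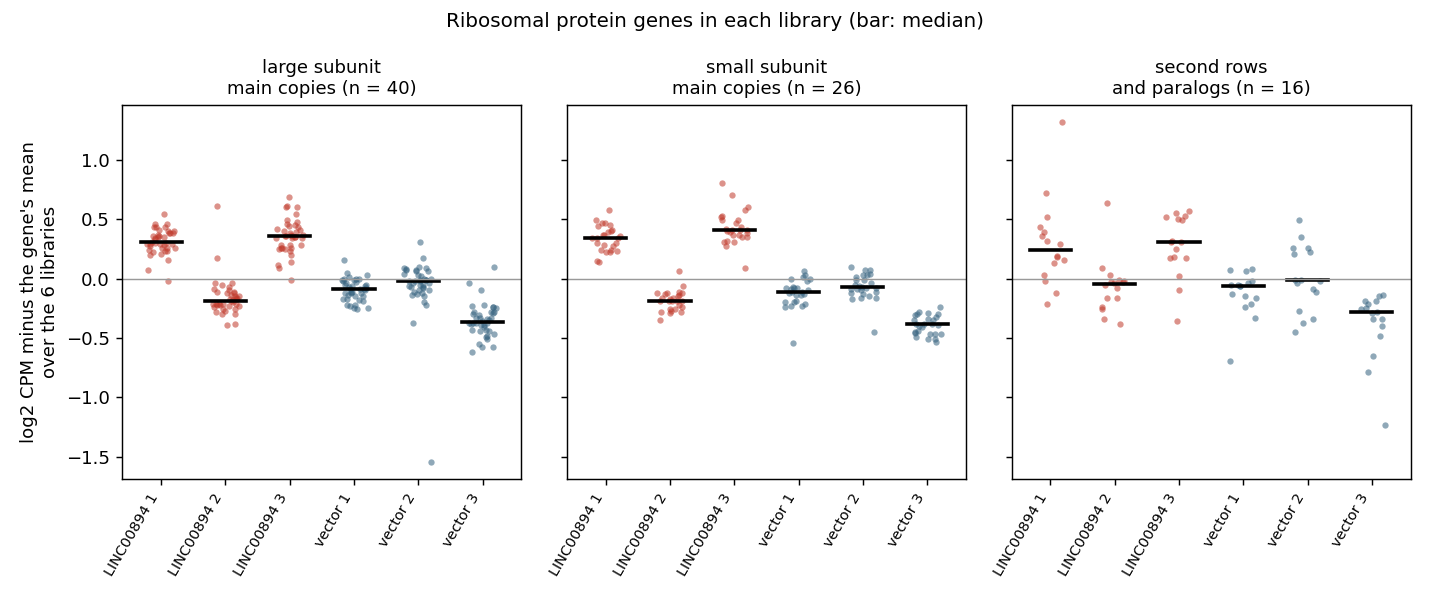
Log2 CPM of each tested ribosomal protein row minus the row's own mean over the 6 libraries (vertical axis, log2 units), for 40 large subunit main copies, 26 small subunit main copies and 16 second rows and paralogs. Points are rows and bars are medians: LINC00894 replicates 1 and 3 lie above 0 for most rows. LINC00894 replicate 2 and all vector replicates lie below 0 for most rows, vector replicate 3 farthest.

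In CPM, LINC00894 replicates 1 and 3 both lay above all 3 vector libraries in 75 of the 82 members, as they did in 20.5% of all genes tested. LINC00894 replicate 2 lay below the middle vector library in 42 of 82 members, against 43.2% of all genes. After TMM scaling, LINC00894 replicate 3 was the highest library in 48 members and vector replicate 3 the lowest in 66. Summed over members, ribosomal proteins took 1.31%, 0.896% and 1.34% of all counts in LINC00894 replicates 1, 2 and 3, against 0.904%, 0.988% and 0.751% in vector replicates. The groups overlap, since LINC00894 replicate 2 lies below vector replicates 1 and 2. These shares rest on 115099 to 178304 counts in LINC00894 and 118154 to 160759 in vector, and the 95% Wilson interval of the lowest, 0.7466% to 0.7551%, covers counting error only.

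The size of the median depended on the libraries used. Without LINC00894 replicate 1, 2 or 3 it was 0.30, 0.48 and 0.22 in that order, and without vector replicate 1, 2 or 3 it was 0.38, 0.41 and 0.26. In the 4 libraries with Y-linked counts, where LINC00894 replicate 3 is the lone LINC00894 library and is assumed to vary like the vector libraries, it was 0.55. With each library's trend on exonic length removed it was 0.25, with 78 of 82 members higher. Ribosomal protein mRNAs are short, with a median exonic length of 682.5 bases in main copies at 10 FPKM or more against 2367 bases in all genes tested, and the part of gene length in the difference was not tested beyond that fit.

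Marker genes of other cells also varied between libraries, in patterns that matched those of the ribosomal proteins only in part. For endothelial cells, 4 of 4 tested markers were higher in LINC00894, with 369, 226 and 245 summed CPM in LINC00894 replicates 1, 2 and 3 and 234, 251 and 170 summed CPM in vector replicates, and Cldn5 was at 0 in every library. By this sum LINC00894 replicate 1 was the highest and vector replicate 3 the lowest library, but vector replicate 2 stood above LINC00894 replicate 3. The tested marker Slco1a4 differed, with LINC00894 replicate 2 the highest at 13.1 FPKM and vector replicate 3 next at 8.65 FPKM. For neutrophils, 3 of 3 tested markers were higher, with 57.3, 8.64 and 20.5 summed CPM in LINC00894 and 26.4, 10.4 and 5.02 summed CPM in vector, and Mpo, Camp and Ngp were near 0. Here vector replicate 1 stood above LINC00894 replicate 3. For microglia, 5 of 6 markers were higher, with 223, 241 and 269 summed CPM in LINC00894 and 218, 220 and 168 summed CPM in vector. The microglial sums do not overlap, and LINC00894 replicate 2, low for ribosomal proteins, was not low among them.

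For neurons, 0 of 6 markers were higher, and the neuron marker medians deviated by -0.43, 0.14 and -0.01 log2 units in LINC00894 replicates 1, 2 and 3, and by 0.10, 0.06 and 0.10 in vector replicates. Oligodendrocyte markers had 8110, 4730 and 6600 summed CPM in LINC00894 and 7310, 4660 and 10400 summed CPM in vector, highest in vector replicate 3, the library with the lowest ribosomal protein values. Gfap, an astrocyte filament gene, had 30021, 30384 and 38960 counts in LINC00894 and 23747, 42357 and 8989 counts in vector, with vector replicate 3 far below the rest. The astrocyte list as a whole did not share this pattern. Of its 6 markers, 3 were higher and 3 lower in LINC00894, with a median log2 fold change of -0.04. Aldh1l1 was highest in vector replicate 3, at 251 counts, and Aqp4 had 7623 counts there. Red blood cell marker medians deviated by 0.79, 1.03 and -1.18 log2 units in LINC00894 and by 1.16, -2.16 and 0.68 in vector. The median log2 fold changes of the marker lists other than neuron, endothelial cell, neutrophil and microglia, from astrocyte to testis germ cell, lay between -0.20 and 0.07 where any member could be tested. The part of other cells in the result was not tested, and in bulk tissue fewer cells of a type and less RNA per cell cannot be told apart.

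Main copies of both subunits had positive values throughout. All 40 tested large subunit main copies had positive log2 fold changes, with a median of 0.34 (0.12 to 1.02). All 26 tested small subunit main copies did too, with a median of 0.39 (0.23 to 1.04). The interquartile range ran from 0.29 to 0.40 in the large subunit and from 0.36 to 0.43 in the small, and the difference between the subunits was not tested gene by gene. Main copies with introns and a TOP start had a median of 0.33 (16 genes, 0.12 to 0.54), and those with introns and no TOP start a median of 0.38 (33 genes, 0.16 to 1.04). Across main copies, the log2 fold change had a Spearman rho of -0.10 with exonic length and -0.07 with mean FPKM.

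**Figure D2:**
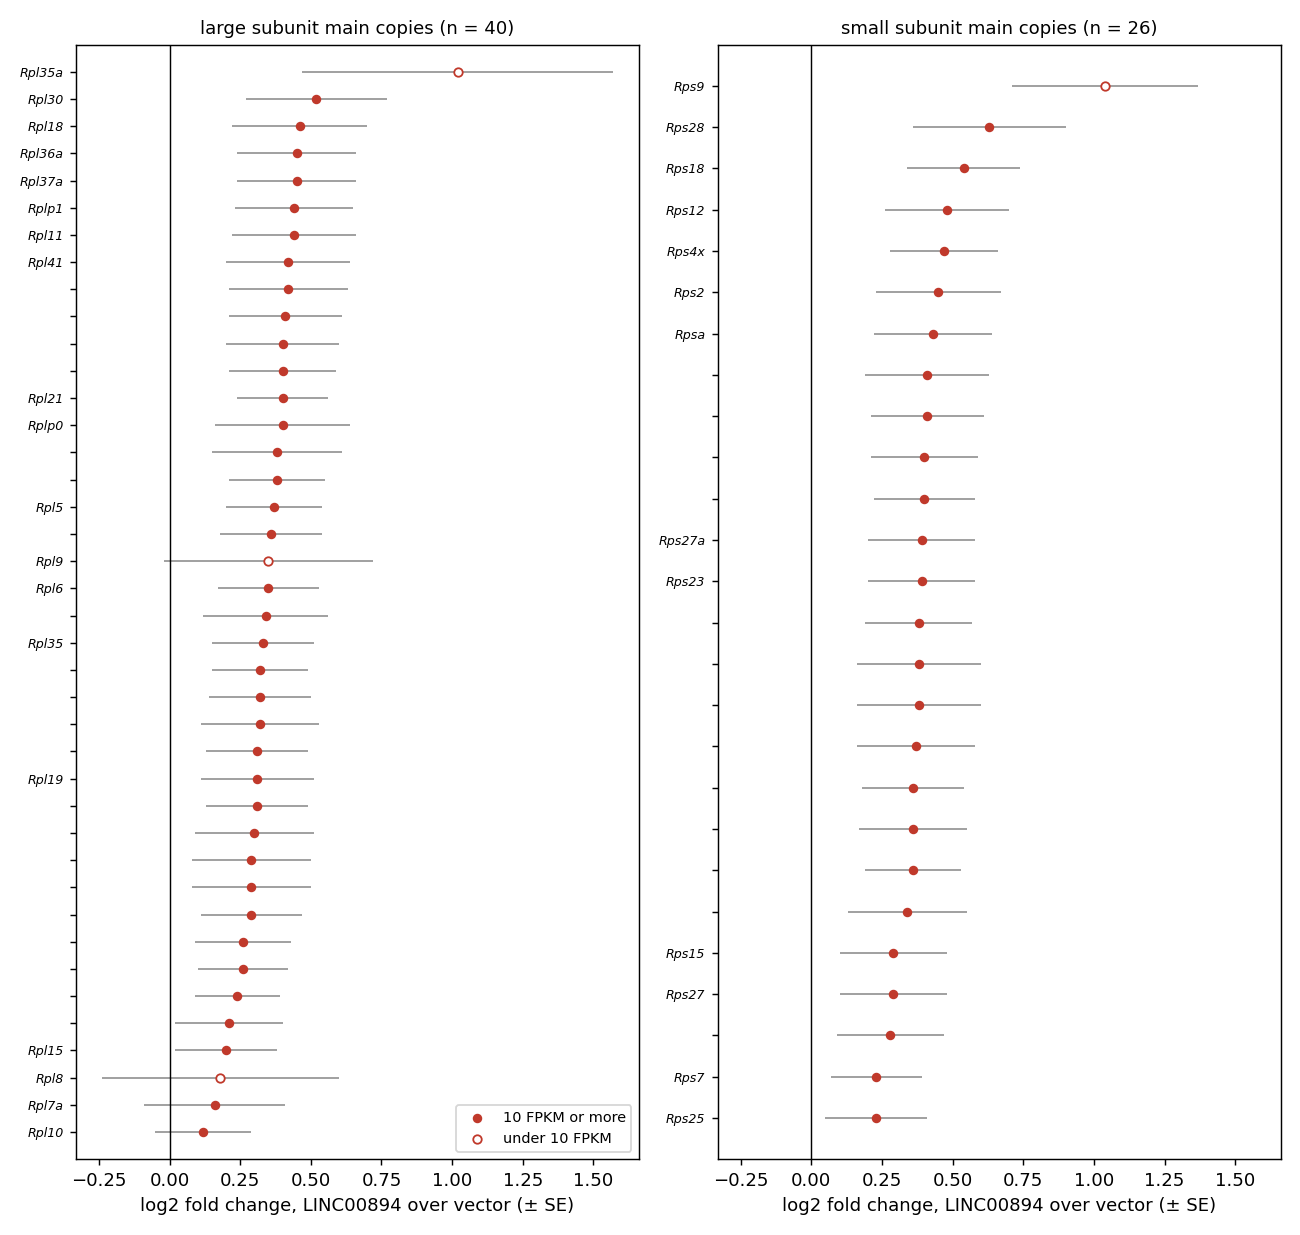
Log2 fold change of LINC00894 over vector with its standard error for each tested main copy, 40 of the large subunit (left) and 26 of the small subunit (right), sorted by size, with symbols for some of the genes named in the text. Filled points average 10 FPKM or more and open points less: all 66 lie right of 0, and the open points of Rpl35a and Rps9, at 1.02 and 1.04, stand farthest out.

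The sum of large subunit counts over the sum of small subunit counts, a ratio within a library that no scaling can move, was nearly constant. On the log2 scale it was 0.592, 0.595 and 0.541 in LINC00894 replicates 1, 2 and 3, and 0.593, 0.624 and 0.624 in vector replicates. The group means were 0.576 ± 0.030 in LINC00894 and 0.614 ± 0.018 in vector (SD, n = 3 each), a difference of -0.038, with overlapping groups. LINC00894 replicate 3 had the lowest ratio of the 6 libraries. Without it the difference was -0.020. From summed FPKM, which weights short genes more, the values were 0.430, 0.435 and 0.393 in LINC00894 and 0.446, 0.462 and 0.443 in vector, a difference of -0.031 in which the groups do not overlap. LINC00894 replicate 3 is also the library with the steepest length slope, and the part of length in the ratio was not tested.

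**Figure D3:**
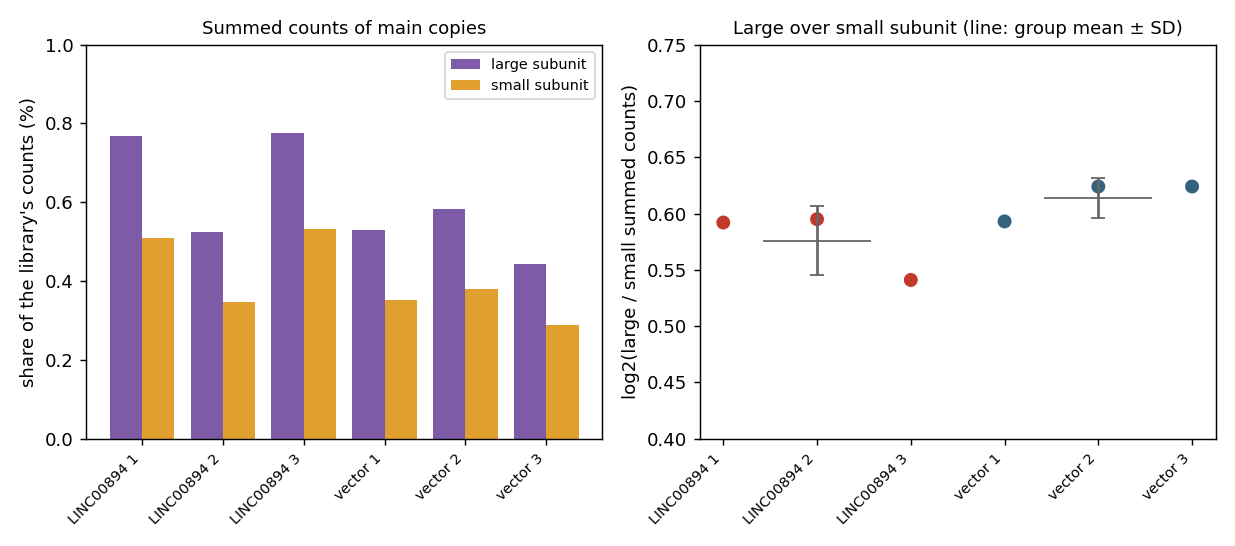
Left, the share of each library's counts (%) in large and small subunit main copies. Right, the log2 ratio of the large to the small subunit sums per library, with group means and SD on an axis that starts at 0.4: shares vary from 0.444% to 0.775% for the large subunit, while the ratio stays between 0.541 and 0.624.

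Within the large subunit the largest differences were those of Rpl35a, Rpl30, Rpl18, Rpl36a and Rpl37a. Rpl30, a small protein of the subunit interface, stood at 113, 73.6 and 148 FPKM in LINC00894 and at 79.0, 82.5 and 61.7 FPKM in vector. LINC00894 replicate 2 lay inside the vector range, and the log2 fold change was 0.52 (SE 0.25). Rpl18, Rpl36a and Rpl37a had log2 fold changes of 0.46, 0.45 and 0.45. For L30 and L36A, other rows described as these proteins or as like them had smaller differences. The L30 row (LOC100362027) had 5625 counts, against 2704 for Rpl30, and a log2 fold change of 0.39 (SE 0.19). The L36A row (LOC108348287) had 2786 counts, against 3240 for Rpl36a, and a log2 fold change of 0.26 (SE 0.19). The Rpl35a row averaged only 2.76 FPKM and is described with the low rows below.

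At the other end, Rpl10, Rpl7a, Rpl8 and Rpl15 had the smallest differences. Rpl10 (ENSRNOG00000056765), whose TOP start is shown above and which is a late-joining protein near the peptidyl transferase centre, lies on chromosome X from 156438251 to 156440461 in the table's coordinates (genome build not given in the sources used here). It stood at 365, 268 and 324 FPKM in LINC00894 and at 292, 310 and 236 FPKM in vector. Its log2 fold change was 0.12 (SE 0.17, 95% interval -0.25 to 0.50), so that the family's median of 0.36 lies inside its interval. Rpl15 had a log2 fold change of 0.20 (SE 0.18).

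Among the 40 tested large subunit main copies, 2 had an unadjusted p under 0.05 by edgeR's test, both higher in LINC00894. Of all genes tested, 1.82% were higher and 2.22% lower at that cutoff. Rpl21 (ENSRNOG00000000957, chromosome 12 from 9996951 to 9998779) stood at 333, 260 and 352 FPKM in LINC00894 and at 216, 250 and 219 FPKM in vector. All LINC00894 libraries of Rpl21 lay above all vector libraries, and its log2 fold change was 0.40 (SE 0.16). Rpl5, which with Rpl11 and 5S ribosomal RNA forms the particle that binds MDM2, stood at 291, 209 and 298 FPKM in LINC00894 and at 196, 211 and 181 FPKM in vector. Its log2 fold change was 0.37 (SE 0.17), LINC00894 replicate 2 lay just under vector replicate 2, and that of Rpl11 was 0.44 (SE 0.22). The Benjamini-Hochberg adjusted p of edgeR's test was 0.981 for all 3 genes.

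In the small subunit the largest differences were those of Rps9, Rps28, Rps18 and Rps12. Rps18 (ENSRNOG00000028505, chromosome 20 from 5441876 to 5445553), a protein of the subunit's head, stood at 81.4, 51.0 and 81.0 FPKM in LINC00894 and at 48.0, 52.8 and 39.1 FPKM in vector. Its log2 fold change was 0.54 (SE 0.20, 95% interval 0.09 to 0.99), and LINC00894 replicate 2 lay just under vector replicate 2. Rps28 stood at 106, 56.7 and 121 FPKM in LINC00894 and at 59.3, 66.2 and 48.9 FPKM in vector, a log2 fold change of 0.63 (SE 0.27). Both had an unadjusted p under 0.05 and an adjusted p of 0.981 by edgeR's quasi-likelihood test with Benjamini-Hochberg adjustment.

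Rps25, Rps7, Rps27 and Rps15 were among the small subunit genes with the smallest differences. Rps25, which many viral internal ribosome entry sites need, stood at 474, 326 and 386 FPKM in LINC00894 and at 340, 359 and 263 FPKM in vector. Its difference was a log2 fold change of 0.23 (SE 0.18), the same value to 2 decimals as that of Rps7 (SE 0.16). The groups overlap in both genes.

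Paralogs are copies that can replace a main protein in the ribosome, or take another role, in certain tissues. In counts they were minor: main copies held 97.6% of the counts of all 97 rows, second rows 1.31% and paralogs 1.13%. The log2 fold changes of the 9 tested paralogs were all positive, with a median of 0.41 (0.02 to 1.39). Of the 7 tested second rows 6 were positive, with a median of 0.30, and the exception was an Rpl32 row at -0.02 (SE 0.39).

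The ratio of a paralog to its main copy within a library was compared for 10 pairs, those with at least 10 paralog counts in all, by a two-sided exact permutation test over the 6 libraries. With 3 against 3 libraries the smallest p this test allows is 0.1. It was reached by 2 of 10 pairs, and after Benjamini-Hochberg adjustment over the 10 pairs 0 passed, with a smallest adjusted p of 0.5. No pair could have passed 0.05 with so few libraries, so this count says nothing about the pairs. With no difference between groups, each pair would reach 0.1 with a probability of 0.1.

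Rps4y2 over Rps4x had the clearest of these differences. Rps4x is the X-linked copy of a small subunit gene that in humans also has Y-linked copies. The Rps4y2 row (ENSRNOG00000031041) had 65, 23 and 36 counts in LINC00894 and 14, 21 and 17 counts in vector. Every LINC00894 library of Rps4y2 lay above every vector library, LINC00894 replicate 1 by the most. Rps4x (ENSRNOG00000003201, chromosome X from 72074108 to 72078551) stood at 199.8, 144 and 206 FPKM in LINC00894 and at 126, 149.8 and 102 FPKM in vector. LINC00894 replicate 2 of Rps4x lay inside the vector range.

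The log2 fold change of Rps4y2 was 1.39 (SE 0.44, 95% interval 0.41 to 2.37), the highest of all members, and that of Rps4x was 0.47 (SE 0.19). Both had an unadjusted p under 0.05 and an adjusted p of 0.981 by edgeR's quasi-likelihood test with Benjamini-Hochberg adjustment. The log2 ratio of Rps4y2 to Rps4x was -5.72, -6.70 and -6.63 in LINC00894 and -7.26, -7.22 and -6.92 in vector, a difference of 0.79 (exact permutation p = 0.1). Without LINC00894 replicate 1 it was 0.47. The row named Rps4y2 lies on chromosome 4 from 182745448 to 182746381, not on the Y chromosome, and has no intron. It lies inside Tmtc1 on the opposite strand, which had 309, 328 and 293 counts in LINC00894 and 336, 417 and 515 in vector. The sources used here do not say whether counting used strand, so reads of the 2 genes cannot be told apart. LINC00894 replicates 1 and 2, where Kdm5d and Eif2s3y were at 0, had 65 and 23 Rps4y2 counts.

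Rpl10l over Rpl10 was the other pair without overlap. Rpl10l, an intronless copy of Rpl10 best known from testis, had 46, 60 and 41 counts in LINC00894 and 32, 39 and 35 in vector. The log2 ratio was -6.30, -5.45 and -6.32 in LINC00894 and -6.52, -6.61 and -6.32 in vector, a difference of 0.47 (exact permutation p = 0.1). LINC00894 replicate 2 had the highest ratio, and without it the difference was 0.18. The testis germ cell markers Prm1, Tnp1, Odf1 and Ddx4 were near 0 in every library, at 0 to 0.0764 summed CPM in LINC00894 and 0.0635 to 0.224 summed CPM in vector. Near-identical copies such as Rpl10 and Rpl10l can share reads, and the sources used here do not say how such reads were counted.

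In the other 8 pairs the groups overlapped. Rpl7l1, a large subunit paralog related to a pre-ribosome factor of yeast, was the best covered, at 75.1, 54.5 and 44.0 FPKM in LINC00894 and 52.6, 63.5 and 46.9 FPKM in vector. The log2 fold change of Rpl7l1 was 0.02 (SE 0.22, 95% interval -0.46 to 0.51), the smallest of the tested paralogs. Its log2 ratio to Rpl7 was -2.50, -2.34 and -3.33 in LINC00894 and -2.37, -2.30 and -2.35 in vector, so that LINC00894 replicate 3 lay below the rest. Without it the difference of -0.39 was -0.08.

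**Figure D4:**
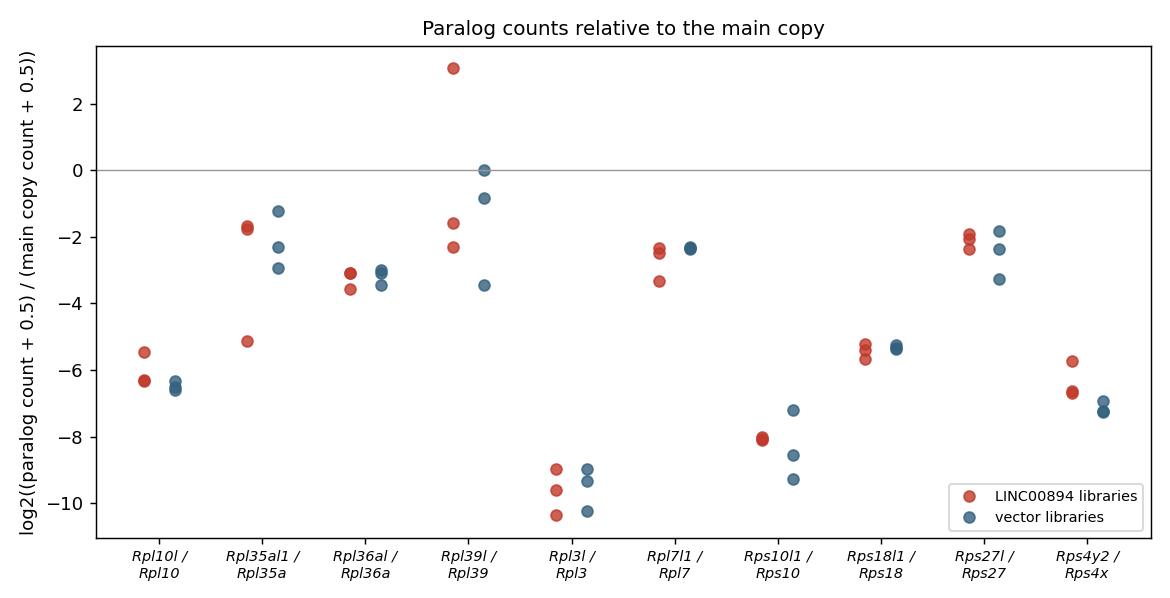
Log2 ratio of paralog to main copy counts, with 0.5 added to each, for 10 pairs (vertical axis), with LINC00894 libraries left and vector libraries right within each pair. Points are libraries: Rps4y2/Rps4x and Rpl10l/Rpl10 show no overlap between groups, though in Rpl10l/Rpl10 the groups all but touch, and the other 8 pairs overlap.

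Rps27l, a small subunit paralog that p53 induces in human cells, stood at 24.0, 11.1 and 21.2 FPKM in LINC00894 and at 13.1, 17.7 and 5.69 FPKM in vector. Its share of the counts of Rps27 and Rps27l together ran from 9.39% to 22% over the 6 libraries. Rpl36al took 7.78% to 11% of the counts of its pair with Rpl36a, and Rps18l1 took 1.9% to 2.57% with Rps18. The heart and skeletal muscle paralog Rpl3l had 43 counts in all, against 33190 for Rpl3. Rpl22l1 and Rps19l2 have no main row to be set against. Rpl22l1 stood at 59.8, 52.1 and 85.9 FPKM in LINC00894 and at 54.6, 56.1 and 47.5 FPKM in vector, with overlapping groups.

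The rows named Rpl39l, Rpl35al1 and Rps10l1 had 16, 13 and 22 counts in all, too few to describe further. Of the 16 Rpl39l counts, 12 came from LINC00894 replicate 2.

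Some rows that carry a main copy's symbol hold few reads. Of the 73 main copies, 11 averaged under 10 FPKM: Rpl8, Rpl9, Rpl10a, Rpl23a, Rpl35a, Rpl38, Rpl39, Rplp2, Rps6, Rps9 and Rps29. Rpl10a, Rpl23a and Rplp2 had 0 counts in every library, and Rps6, the substrate of the S6 kinases, had 4 counts in all. Ribosomes of every cell use these proteins, so such rows are reported only as listed at 0 or near it. For several of them the table holds another, unnamed row that it describes as the same protein or as like it.

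The row named Rpl9 had 139 counts, against 20864 for the row described as L9-like (LOC100360449). Rps29 had 59 counts, against 8688 for the other S29 row (LOC108352650). Rpl39 had 15 counts, against 3360 for the other L39 row (LOC103693375). These better covered rows also had positive log2 fold changes: 0.41 (SE 0.18) for L9-like, 0.39 (SE 0.25) for S29 and 0.44 (SE 0.24) for L39. Of the families without a row of their own, S14 had an S14-like row (LOC100911847) at 363 FPKM with a log2 fold change of 0.48 (SE 0.19), and L22 an L22-like row (LOC100360057) at 99.4 FPKM with 0.37 (SE 0.20). In all, 118 rows outside the members were described as cytosolic ribosomal proteins and held 83813 counts, 8.84% of the counts of all such rows.

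**Figure D5:**
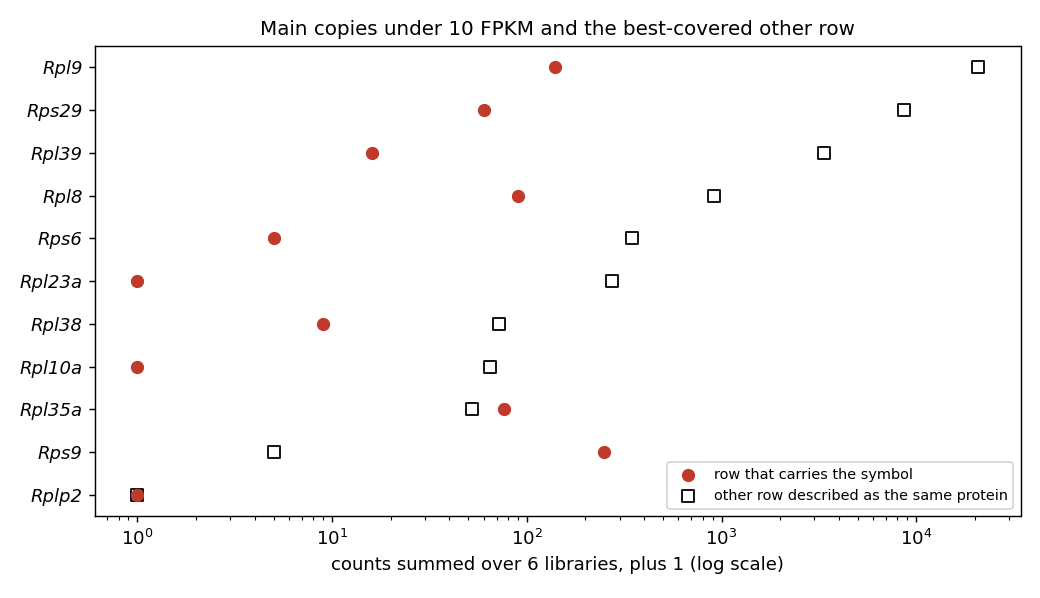
Counts summed over the 6 libraries plus 1 (log scale) for the 11 main copies under 10 FPKM (filled points) and for the best covered other row described as the same protein (open squares). Rpl9, Rps29 and Rpl39 lie far left of their partners. Rplp2 had 0 counts and no other row described as that protein, so its open square at 0 counts stands for no row.

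Exon structure was compared with these levels. A row whose exonic length equals its span has no intron, as a retrocopy made from a spliced mRNA would have none. Among members 21 rows are intronless (21.6%, against 29.5% of all rows of the table): 7 main copies, 7 second rows and 7 paralogs. Of the 11 main copies under 10 FPKM, 5 are intronless and 6 have introns, and the intronless Rpl37 and Rps13 averaged 64.5 and 26.8 FPKM. All 7 intronless main copies (Rpl9, Rpl35a, Rpl37, Rpl38, Rpl39, Rps13 and Rps29) lie on another chromosome than the RefSeq gene of that name on GRCr8, while 0 of the 66 main copies with introns do. The best covered other row has introns for Rpl9, Rpl39 and Rps29, and has none for Rpl35a and Rpl38. It also has none for Rpl8, Rpl23a and Rps9, whose own rows have introns. The 68 tested members with introns had a median log2 fold change of 0.36 and the 14 tested intronless members a median of 0.37, and 13 of the 14 were positive.

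Differences of the 4 tested low main copies ranged widely, from the highest among main copies to below the median of all members. Rps9 (ENSRNOG00000058909), a protein near the decoding centre, had 57, 37 and 67 counts in LINC00894 and 24, 32 and 30 in vector. Every LINC00894 library lay above every vector library, and the log2 fold change was 1.04 (SE 0.33, 95% interval 0.30 to 1.78), with an adjusted p of 0.981 by edgeR's test with Benjamini-Hochberg adjustment. Its row spans 71897 bases on chromosome 1 and overlaps Mboat7l1, Pirb and Tmc4 on the other strand, so its reads and theirs cannot be told apart. Rpl35a had 17, 17 and 15 counts in LINC00894 and 11, 3 and 12 in vector, a log2 fold change of 1.02 (SE 0.55). Rpl9 and Rpl8 had log2 fold changes of 0.35 and 0.18, and the 62 main copies at 10 FPKM or more had a median of 0.37.

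Other rows also share their place with a gene of the opposite strand. Of the members, 9 lie inside such a gene. Rpl23a, at 0 counts, lies inside Tlcd1 with 2244 counts, and Rpl10a, also at 0 counts, lies inside Tead3 with 1747. Rpl37, at 64.5 FPKM, lies inside Vps53, and the second Rps27a row, at 47.6 FPKM, inside Foxj3. Rplp2, Rps6 and Rpl38, with 0, 4 and 8 counts, overlap no such gene. The part of strand in these levels was not tested. Members also hold other genes: 14 members contain 34 named snoRNA rows within their span, 5 of them in Rpl4, as snoRNAs are often made from the introns of ribosomal protein genes.

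Other genes of the pathway were taken from 8 lists of genes for translation and ribosome production. By edgeR, 0 of 123 tested genes passed an adjusted p of 0.05, as had 0% of all genes tested. In the same test 1 gene had an unadjusted p under 0.05 and was lower in LINC00894. Of all genes, 1.82% were higher and 2.22% lower at that cutoff. DESeq2 called 1 of the list genes, and 0.0727% of all genes. Other mRNAs of the TOP class, which encode elongation factors and similar proteins, were taken from a list, and their starts were not examined. They had mostly positive values: 14 of 15 log2 fold changes were above 0, with a median of 0.23. Naca, a subunit of the nascent chain complex, averaged 31.3 ± 5.15 FPKM in LINC00894 and 23.0 ± 3.32 FPKM in vector, a log2 fold change of 0.38 (SE 0.17). Eef1b2, a nucleotide exchange factor of elongation, averaged 135 ± 32.2 FPKM in LINC00894 and 95.1 ± 19.2 FPKM in vector (SD, n = 3 each), a log2 fold change of 0.44 (SE 0.21). The groups overlap in both genes.

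LINC00894 replicates 1 and 3 were the highest libraries for the TOP list and for the ribosome assembly list, as they were for the ribosomal proteins. TOP list medians deviated by 0.30, -0.17 and 0.30 log2 units in LINC00894 replicates 1, 2 and 3 and by -0.09, 0.08 and -0.29 in vector replicates. Assembly list medians deviated by 0.26, -0.12 and 0.16 in LINC00894 and by -0.20, 0.07 and -0.16 in vector. For assembly factors, 41 of 43 tested genes had positive log2 fold changes, with a median of 0.21. Utp14a, a nucleolar factor of small subunit production, averaged 12.2 ± 2.04 FPKM in LINC00894 and 8.94 ± 1.24 FPKM in vector. Gar1, of the snoRNP that makes pseudouridine, averaged 8.78 ± 2.12 FPKM in LINC00894 and 6.07 ± 0.455 FPKM in vector (SD, n = 3 each). All 3 libraries of Utp14a in LINC00894 (14.5, 11.8 and 10.5 FPKM) lay above those in vector (8.89, 10.2 and 7.73 FPKM).

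Rack1 and Fau belong to the ribosome but fall outside the symbol rule. Rack1, a scaffold on the small subunit, had a log2 fold change of 0.22 (SE 0.19). Fau, the fusion that carries S30, had at most 3 counts per library under its symbol and was not tested.

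Genes that control the translation of TOP mRNAs had a median near 0, with more negative than positive values. Of 18 tested, 14 had negative log2 fold changes, with a median of -0.08, while 51.8% of all genes tested had positive ones. Ddit4, an inhibitor of mTORC1, stood at 29.4, 24.4 and 29.1 FPKM in LINC00894 and at 40.8, 43.4 and 43.2 FPKM in vector, with no overlap. Its log2 fold change was -0.69 (SE 0.14), with an adjusted p of 0.981 by edgeR, and DESeq2 called it. Rheb, the GTPase that activates mTORC1, averaged 108 ± 11.7 FPKM in LINC00894 and 132 ± 23.4 FPKM in vector, a log2 fold change of -0.36 (SE 0.17).

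The remaining 4 lists also had medians near 0. The median log2 fold change was 0.05 for ribosomal protein chaperones and importers (7 of 11 positive), 0.10 for RNA polymerase I and rDNA transcription (10 of 14), -0.04 for ribosome quality control (5 of 12) and 0.06 for elongation and termination (10 of 14), a list that shares Eef1b2 and others with the TOP list. Among these, Bccip averaged 18.4 ± 0.977 FPKM in LINC00894 and 14.7 ± 1.89 FPKM in vector. Taf1a, of the RNA polymerase I selectivity factor, averaged 12.8 ± 2.32 FPKM in LINC00894 and 9.02 ± 2.06 FPKM in vector (SD, n = 3 each).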

How the data were processed

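The deposited table lists raw counts and FPKM for 32623 rat genes in each library, per the file headers. FPKM as the authors deposited it equals counts over exonic length and library total, to within 0.005. HISAT2 2.0.1 and DESeq2 are named, with no role, per the submitters' processing notes. The counting tool, annotation, genome build and strand use were not given in the sources used here.

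Libraries were grouped by the genotype label and numbered in accession order. Counts were tested with edgeR 4.0.16 in R 4.3.3 over all 15121 genes that passed filterByExpr (minimum count 10, minimum total count 15), with TMM scaling, the quasi-likelihood test, no covariates and Benjamini-Hochberg adjustment. The biological coefficient of variation was 0.238. Depth limits precision most for rows with few counts. Log2 fold changes are LINC00894 over vector. DESeq2 1.42.0, other scalings and filters, a length correction, Y-linked counts and left-out libraries were alternatives, and a median over intron-containing rows only was added after seeing the data. The fits were tested on simulated data.

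Where several rows carry 1 symbol, the row with the highest count is the main copy. RefSeq GRCr8 served for names, chromosomes and promoters. Plots were drawn with matplotlib 3.10.9. Genes named are the 5 highest per subunit, the 4 with the largest and smallest log2 fold changes, paralogs, low and second rows with at least 10 counts, members at an unadjusted p under 0.05, stalk and fusion proteins, and up to 2 genes per list. Not every one is described, and some are not reported here. Rpl37a, Rpl11, Mpo, Camp, Ngp and the unnamed rows were chosen after their values were seen, and the members and lists were chosen with earlier results of these data known.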

Additional observations from a re-analysis of the deposited data

How the results depend on the processing

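Under all 14 other fits, 0 ribosomal protein genes passed an adjusted p of 0.05, and the median log2 fold change of LINC00894 over vector stayed positive in both subunits. It was 0.35 with DESeq2 or median-of-ratios scaling, 0.34 without a filter and 0.35 at a mean of at least 1 FPKM. With library size alone it was 0.43, and 62.6% of all genes were then positive against 51.8%, with a shift of the median gene to 0.080. It was 0.54 with Y-linked counts as a covariate and 0.36 over intron-containing rows only. Leaving out each library in turn gave medians of 0.22 to 0.48 for all members, 0.22 to 0.47 for the large subunit and 0.24 to 0.53 for the small, with at least 76 of 82 members positive. The large over small ratio differed by -0.048 to -0.020 with a library left out and by -0.073 in the libraries with Y-linked counts only. Of the translation lists, 1 gene, Ddit4, was called by DESeq2, and 0 by the other fits. The causes were not tested. No paired analysis was possible because the titles give the groups no shared replicate numbers. With 3 libraries per group, 0 calls do not show that values did not differ, and rows under 10 FPKM rest on few counts. Reads shared by near-identical copies limit every row that has one.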
